A study of Mus musculus with 63 samples.

Results

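Among single wild-type mouse cells sorted as common helper innate lymphoid progenitors (CHILPs), 4 cells held little RNA of Id2, the gene by which innate lymphoid progenitors are usually recognised, and much RNA of Dntt, a gene of early lymphoid progenitors. They were chosen by their measured values. A cell counted as Id2-low if its Id2 level was below 250 TPM (transcript abundance per gene length, scaled to a total of 1000000 in each library) and its Dntt level was at least 1000 TPM. Cells 5-1, 6-1, 16-1 and 29-1 met this, out of 29 wild-type cells and 63 libraries in all. The comparison was the 23 wild-type cells with Id2 of at least 250 TPM, here called Id2-high. Cells 21-1 and 26-1 were left out by the same rule. They held Id2 at 259 and 510 TPM and Lyz2, a lysozyme gene of myeloid cells, at 35871 and 126914 TPM.

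CHILPs are the source of helper innate lymphoid cells (ILCs), lymphocytes that carry no rearranged antigen receptor. ILC progenitors arise from multipotent lymphoid progenitors, in which E proteins such as E2A drive early lymphoid genes, among them Dntt and the recombinase genes Rag1 and Rag2. ID2 binds E proteins and keeps them from DNA, and its gene is switched on when a lymphoid progenitor takes the innate path, together with Gata3, Tox and Tcf7.

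Both sets came from C57BL/6 mice and from the same wild-type sort. Its gate took CD45.2+ cells positive for CD127 and α4β7, without lineage markers, CD135 or CD25, and with intermediate or no Sca1. No treatment of the wild-type mice, age, sex or number of animals is given in the labels, and the series has a further 34 libraries of cells regenerated from pluripotent stem cells in recipients lacking Rag2 and Il2rg. None of those 34 met the rule, since Dntt was listed at 0 in all of them and the lowest Id2 level was 1703 TPM. No animal or culture was named for a cell, so each set is 1 sample of cells. Because the sets were also drawn by their values, no test was made, and every difference below is a description with its spread over cells.

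TPM keeps no read depth, so the precision of a single value is unknown. Genes that every cell uses, such as Tbp, Pgk1 and Hprt, were at 0 in some libraries, and a value of 0 means here that the gene was listed at 0. The Id2-low cells had 2538, 5161, 2788 and 5589 genes at 1 TPM or more, in the order 5-1, 6-1, 16-1 and 29-1, which is kept for all values below. The Id2-high cells had 1189 to 5939 such genes, with a median of 2938. Cells 6-1 and 29-1 thus lay near the upper end of that range and 5-1 and 16-1 near its middle, and the part of gene number in the differences was not tested beyond the comparison with cells of similar gene number given with them. A gene is called detected in a cell from 10 TPM upwards. A count of 0 among the 23 Id2-high cells allows a share of up to 13% of such cells, for counting error only. For 0 among the 4 Id2-low cells this share is up to 75.0%. Both come from the approximation that a count of 0 allows up to 3, which overstates the share for as few as 4 cells. It also takes cells as drawn at random, while the sets were chosen by their values.

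The 250 bases before the RefSeq start of 4 genes are shown. E proteins act on early lymphoid genes through E-box letters and ID2 blocks them, hence the choice. The genes are the selecting pair Dntt and Id2 and the recombinase pair. Sequences are from RefSeq on GRCm38.p6, 5′ to 3′ on the strand of the gene, in lower case with the E-box letters CANNTG, which E proteins recognise, in capitals. CANNTG reads the same on both strands, so 1 search covers both. Dntt lies at chr19:41029025-41029274 on the plus strand, Rag1 at chr2:101649533-101649782 on the minus strand, Rag2 at chr2:101624462-101624711 on the plus strand and Id2 at chr12:25096093-25096342 on the minus strand.
Dntt: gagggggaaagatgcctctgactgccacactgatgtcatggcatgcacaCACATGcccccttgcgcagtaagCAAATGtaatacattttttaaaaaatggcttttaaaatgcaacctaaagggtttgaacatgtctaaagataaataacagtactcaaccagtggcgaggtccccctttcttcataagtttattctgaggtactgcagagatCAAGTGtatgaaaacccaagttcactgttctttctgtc
Rag1: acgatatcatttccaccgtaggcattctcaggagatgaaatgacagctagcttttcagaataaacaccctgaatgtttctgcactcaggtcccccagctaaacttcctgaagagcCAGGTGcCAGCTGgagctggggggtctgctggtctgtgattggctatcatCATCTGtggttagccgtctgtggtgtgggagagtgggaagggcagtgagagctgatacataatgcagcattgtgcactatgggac
Rag2: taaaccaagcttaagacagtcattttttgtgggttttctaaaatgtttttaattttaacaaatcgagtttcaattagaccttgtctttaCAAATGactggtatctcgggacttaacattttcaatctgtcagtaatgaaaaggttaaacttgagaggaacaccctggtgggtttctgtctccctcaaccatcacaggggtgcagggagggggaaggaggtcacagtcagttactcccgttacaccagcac
Id2: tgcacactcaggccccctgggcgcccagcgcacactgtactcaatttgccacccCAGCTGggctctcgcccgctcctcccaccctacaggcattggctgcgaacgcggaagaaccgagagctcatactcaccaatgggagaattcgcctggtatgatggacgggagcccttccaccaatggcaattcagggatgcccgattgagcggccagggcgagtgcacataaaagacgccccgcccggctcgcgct
Dntt held 3 matches, at 201, 178 and 38 bases before the start, and Rag1 held 3, at 135, 128 and 85 bases. The match at 128 bases before Rag1 has the letters CAGCTG, and it follows the match CAGGTG with 1 base between them. Rag2 held 1 match, at 161 bases, and Id2 held 1, CAGCTG, at 196 bases before its RefSeq start. The Id2 window lies inside the GENCODE span of Id2 given below, whose start is further upstream. Matches of this kind are common: 66.2% of 32851 promoter windows of the same length held at least 1, with a median of 1, and 13% held CAGCTG. They are letters in a window and no evidence of binding.

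The selecting genes set the sets far apart. Id2 (chromosome 12, 25093799 to 25097140 on GRCm38) was at 15.6, 63.6, 26.3 and 216 TPM in the 4 cells and at 710 to 24982 TPM in the Id2-high cells, with a median of 6041. The member nearest the limit was 29-1, and the nearest cell outside it was 9-1 with 710 TPM. Dntt encodes terminal deoxynucleotidyl transferase, which adds bases at antigen receptor joints (chromosome 19, 41029275 to 41059525). It was at 1121, 2137, 1931 and 1586 TPM. The highest Id2-high value was 3.65 TPM, in 25-1, and 15 of the 23 were at 0. No cell of either set thus lay between them for either gene. The rule placed all cells by Id2, and the Id2-low cells also by Dntt. The left-out cells 21-1 and 26-1, with Id2 at 259 and 510 TPM, lay between the sets for that gene.

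**Figure D1:**
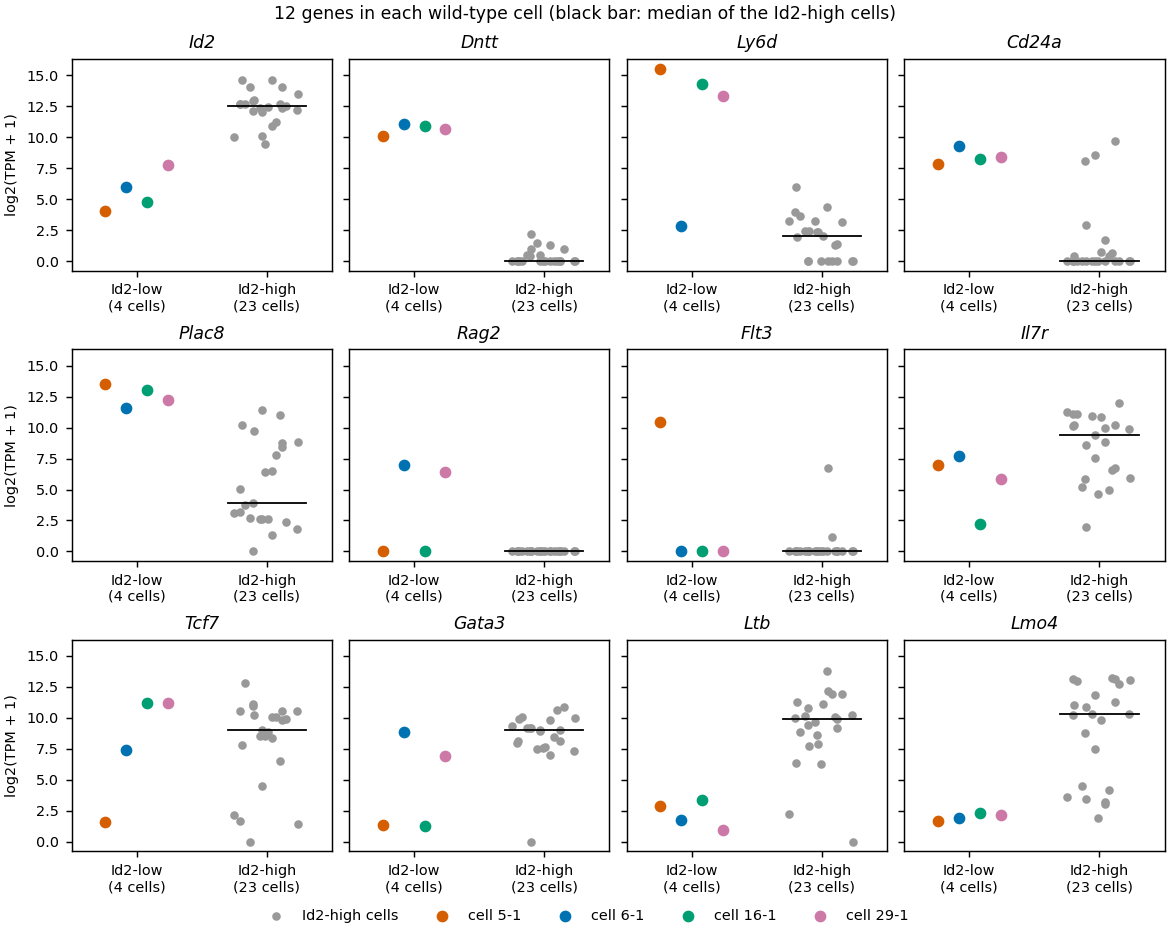
Levels of 12 genes in each wild-type cell, as log2(TPM + 1) on the vertical axis, with the 4 Id2-low cells in colour, the 23 Id2-high cells in grey and a bar at the Id2-high median. Id2 and Dntt chose the sets. Among the others Ly6d, Rag2 and Flt3 separate 3, 2 and 1 of the Id2-low cells from all Id2-high cells, while Plac8 separates the sets and Tcf7 does not.

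Of 8278 genes kept (those that reached 1 TPM in 3 or more of the 27 cells), 1652 had a mean log2(TPM + 1) at least 2 higher in the Id2-low cells, which is 20%, and 307 had one at least 2 lower, which is 3.71%. The median difference over all kept genes was 0.51. In the comparison with the 13 Id2-high cells whose gene numbers lay within the Id2-low range of 2538 to 5589, the split was 1140 against 779, which is 15.1% and 10.3% of 7538 kept genes, and the median 0.09. After quantile normalisation it was 1177 against 496 with a median of 0.03. The excess of higher over lower genes therefore changed with gene number and scaling, and the lists below are given against it. The lower count also depended on single cells, with 621 genes (7.76%) without 29-1 and 516 (6.42%) without 6-1. Without 5-1, 27.5% of genes were at least 2 higher, without 6-1 17% and without 29-1 16.9%. Counts below that leave out a cell or use cells of similar gene number are to be read against these shares.

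Lymphoid priming genes were unevenly spread among the 4 cells. Of 18 listed genes 16 were kept, and 7 of these were at least 2 higher, Dntt included, against 20% of all genes, while 2 were at least 2 lower, against 3.71%. The median difference of the list was 1.47. Of the 16, 2 passed the filter only with the help of the Id2-low cells. Detected genes numbered 11, 13, 6 and 11 in the 4 cells and 2 to 9 in the Id2-high cells, with a median of 7. These counts include Dntt, which the rule required in all 4 cells and which was detected in no Id2-high cell. Cell 16-1 thus lay inside the Id2-high range and the other 3 above it. With the 13 cells of similar gene number, 6 of 15 kept genes were at least 2 higher and 3 at least 2 lower.

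Ly6d, a surface protein that marks lymphoid progenitors turning towards the B lineage (chromosome 15, 74762056 to 74763620), was at 47378, 6.02, 19774 and 10269 TPM. The Id2-high cells had 0 to 63.3 TPM, with a median of 3.14. Cells 5-1, 16-1 and 29-1 lay far above every Id2-high cell, and 6-1 lay inside their range with 7 of them above it. The means of log2(TPM + 1) were 11.49 ± 5.85 (SD over 4 cells) and 1.91 ± 1.73 (SD over 23 cells). Ly6d therefore split the Id2-low cells themselves.

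The recombinase genes were found in few cells. Rag2 was at 126.8 TPM in 6-1 and 85.9 TPM in 29-1, and Rag1 at 22.7 TPM in 6-1. Both genes were listed at 0 in all 23 Id2-high cells and in 5-1 and 16-1. Neither was kept under the gene filter, since fewer than 3 cells held it. The cell with both Rag genes was the cell without high Ly6d.

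Flt3 encodes the cytokine receptor CD135 of multipotent and lymphoid progenitors, against which the sort was gated. It was at 1367 TPM in 5-1 and at 0 in 6-1, 16-1 and 29-1. It was detected in 1 Id2-high cell, with 103 TPM. Il7r encodes CD127, the interleukin 7 receptor chain on which the cells were sorted. It was at 126, 202, 3.75 and 57.4 TPM, against 2.95 to 4083 TPM in Id2-high cells with a median of 655. All 4 lay below the Id2-high median, and 16-1 was near the bottom of the range. Without 16-1 the mean difference of Il7r went from -2.74 to -1.59.

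Satb1, a chromatin organiser of early lymphoid cells, was at 52.1, 17.2, 114 and 122 TPM and was detected in 9 of 23 Id2-high cells. Sox4, a transcription factor of early B and T cell development, was at 44.9, 166, 539 and 46.6 TPM and was detected in 12 of 23. Both were in every Id2-low cell and overlapped the Id2-high values, whose highest were 153 and 647 TPM. Cnn3, an actin-binding protein, was at 494, 184, 0 and 83.7 TPM and was detected in 3 of 23 Id2-high cells. Hmgb1, a chromatin protein that assists recombinase binding, was at 780, 1269, 1069 and 1410 TPM. Its highest Id2-high value was 761 TPM, so the sets did not overlap for this gene. This was so for 0.109% of kept genes in this direction, the selecting gene Dntt included.

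Other genes of the list were not shared by the 4 cells. Ikzf1, the lymphoid transcription factor Ikaros, was at 161 TPM in 6-1 and 159 TPM in 29-1 and under 10 TPM in 5-1 and 16-1. Mef2c was detected in 5-1 and 6-1, Bcl11a in 5-1 alone and Foxo1 in 6-1 alone. Cd27, a receptor of the tumour necrosis factor family, was at 96.4 TPM in 6-1 and 223 TPM in 29-1 and at 0 in the others. Lef1, an HMG-box factor related to Tcf7, was listed at 0 in all 4 cells, and was detected in 10 of 23 Id2-high cells, with up to 984 TPM.

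**Figure D2:**
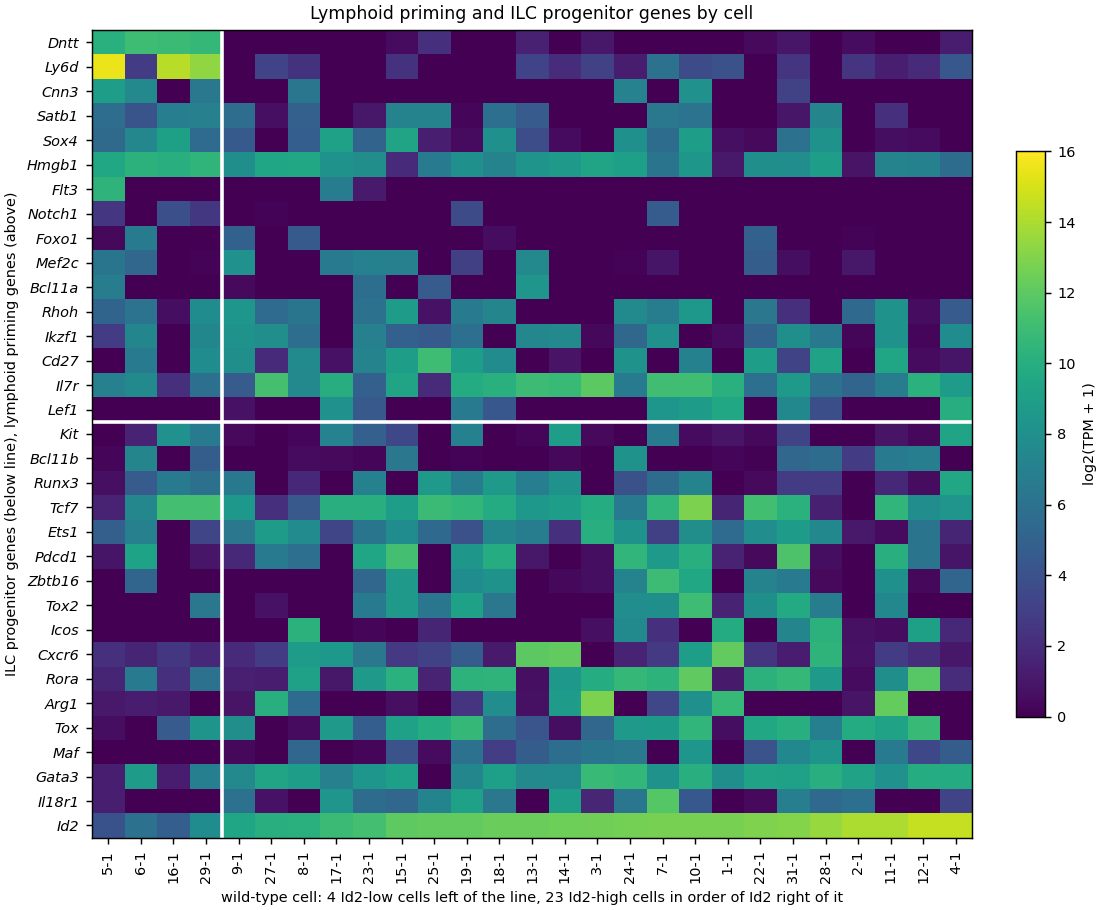
Levels of kept lymphoid priming genes (above the white horizontal line) and ILC progenitor genes (below it) in each wild-type cell, coloured by log2(TPM + 1); the 4 Id2-low cells stand left of the white vertical line and the 23 Id2-high cells right of it in order of Id2. Dntt is bright in the 4 left columns alone, and Il18r1 and Maf are dark there, while Tcf7 is bright in 6-1, 16-1 and 29-1 and in most Id2-high cells.

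Most B lineage genes were listed at 0 in the 4 cells. Ebf1, Pax5, Cd79a, Igll1 and the Vpreb genes were listed at 0 in all 27 cells. Of 15 listed genes with a row, 12 were at 0 in every Id2-low cell. Blnk, an adaptor of B cell receptor signalling, was at 887 TPM in 5-1 and at 0 in the 26 others, and Pou2af1 was at 12.5 TPM in 6-1. Cd24a, a surface glycoprotein of early B and other progenitors (chromosome 10, 43578284 to 43584265), was in all 4 cells, at 229, 618, 302 and 336 TPM. It was detected in 3 of 23 Id2-high cells, with a median of 0 and a highest value of 821 TPM. Cd24a, Satb1 and Sox4 were together detected in all 4 Id2-low cells and in 2 Id2-high cells, 8-1 and 18-1.

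T lineage signalling genes were in 3 of the 4 cells. Lck, the kinase of T cell receptor signalling, was at 0, 1753, 1131 and 2389 TPM, with an Id2-high median of 225 and maximum of 1157. The adaptor Lat was at 0, 637, 152 and 784 TPM and was detected in 15 of 23. Cell 5-1 had neither gene, and the 3 others had both. Among receptor chains, Cd3e was at 8.44 TPM and Cd3d at 4.86 TPM in 6-1, and Cd3g, Ptcra, Cd4 and Cd8a were at 0 in all 4. Over the list, 2 of 8 kept genes were at least 2 higher, near the 20% of all genes, and 0 at least 2 lower. The median difference was 0.26, and it went to 1.10 without 5-1 and to -0.41 without 29-1.

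The E protein genes, whose products ID2 binds, were found in both sets. Tcf4, which encodes E2-2, was at 140, 21.1, 76.2 and 21.7 TPM and was detected in 12 of 23 Id2-high cells. Tcf12, which encodes HEB, was at 14, 48.4, 184 and 49.3 TPM and was detected in 10 of 23. Tcf3, which encodes E2A, was at 0, 89.0, 10.9 and 270 TPM and was detected in 9 of 23. All 3 overlapped the Id2-high values. Of 4 kept genes of the list 2, Tcf4 and Tcf12, were at least 2 higher, against 20% of all genes. The selecting gene Id2 was at least 2 lower. With cells of similar gene number 1 of 4 was at least 2 higher, against 15.1% of all genes. Id1, Id3 and Id4 were listed at 0 in all 27 cells.

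ILC progenitor genes were lower in the 4 cells as a list. Of 19 listed genes 18 were kept, Id2 included, and 13 were at least 2 lower, against 3.71% of all genes, and 0 at least 2 higher, against 20%. The median difference was -2.69. It was -3.57 with the 13 cells of similar gene number, where 12 of 17 were at least 2 lower. Detected genes numbered 2, 9, 5 and 9, against 4 to 14 in the Id2-high cells with a median of 10. Cell 5-1 lay below the Id2-high range and the other 3 inside it.

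The early factors did not move as a block. Tcf7, the HMG-box factor TCF-1, was at 2.06, 169, 2356 and 2334 TPM, against 0 to 7269 TPM in Id2-high cells with a median of 503. Cells 16-1 and 29-1 lay above every Id2-high cell except 10-1. Gata3 was at 1.51, 450, 1.35 and 118 TPM, against a median of 524, and was detected in 22 of 23 Id2-high cells. Cells 6-1 and 29-1 thus held Gata3 and the other pair did not. Tox, another HMG-box factor of ILC development, was at 0.50, 0, 22.9 and 306 TPM, against a median of 388. Tcf7, Gata3 and Tox were together detected in 1 Id2-low cell, 29-1, and in 15 of 23 Id2-high cells.

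Several other genes of the list were at or near 0. Il18r1, a cytokine receptor of ILC precursors, was at 1.54, 0, 0 and 0 TPM and was detected in 14 of 23 Id2-high cells. Maf was listed at 0 in all 4 cells and was detected in 13 of 23. Cxcr6, a chemokine receptor, was at 2.21 to 5.11 TPM and was detected in 9 of 23 Id2-high cells, at up to 4661 TPM. Zbtb16, which encodes PLZF of ILC precursors, was at 36.4 TPM in 6-1 and at 0 in the other 3, and was detected in 11 of 23 Id2-high cells. Rora was at 2.22, 94.2, 3.40 and 63.5 TPM and Pdcd1, which encodes PD-1, at 0.84, 631, 0 and 0.96 TPM. Kit, a growth factor receptor of progenitors, went the other way in 2 cells, with 273 TPM in 16-1 and 97.2 TPM in 29-1 against an Id2-high median of 0.34. Bcl11b was at 152 TPM in 6-1 and 25.7 TPM in 29-1 and was detected in 6 of 23 Id2-high cells.

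The genes of the 3 ILC groups included the 2 lowest mean differences among kept genes detected in 50% or more of the Id2-high cells. Predicted genes were left out of this ranking. Ltb, which encodes lymphotoxin beta (chromosome 17, 35194439 to 35196320), was at 6.44, 2.34, 9.35 and 0.90 TPM, against a median of 938 and a maximum of 13989. All 4 cells lay below 21 of 23 Id2-high cells, and the mean difference was -6.87. Lmo4, a LIM-domain cofactor (chromosome 3, 144188530 to 144205220), was at 2.27, 2.71, 4.07 and 3.43 TPM, against a median of 1278, with 22 of 23 Id2-high cells above all 4. Cd7, a surface protein of early lymphocytes, was listed at 0 in all 4 cells and detected in 14 of 23.

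Not all of these genes were low. Nkg7 was at 1.54, 109, 559 and 690 TPM, inside the Id2-high range whose median was 1423. Fcer1g, a signalling adaptor of innate cells, was at 2693, 429, 2334 and 1476 TPM against a median of 1535. Crlf2, the receptor for thymic stromal lymphopoietin, was at 0, 23.1, 89.5 and 36.6 TPM and was detected in 2 of 23 Id2-high cells. For the ILC1 and natural killer list 3 of 12 kept genes were at least 2 lower, for the ILC2 list 1 of 5 and for the ILC3 list 3 of 10, against 3.71% of all genes, with median differences of -1.34, -1.21 and -1.07. The ILC2 median rested on single cells, with -2.84 and 3 of 5 genes lower without 29-1 and -0.0081 without 16-1. With cells of similar gene number these counts were 8 of 12 for the ILC1 list, 2 of 4 for the ILC2 list and 4 of 8 for the ILC3 list, against 10.3% of all genes, with medians of -2.15, -1.88 and -2.14.

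Cell cycle genes were higher in the 4 cells as lists, with 2 of the cells carrying most of the mitotic part. Of 22 kept S phase genes, 17 were at least 2 higher and 0 at least 2 lower, with a median difference of 2.90. Of 20 kept G2 and mitosis genes, 19 were at least 2 higher and 0 lower, with a median of 4.07. These counts stand against 20% of all genes. Of the kept genes, 4 of the S phase list and 13 of the mitotic list passed the filter on low values only with the help of the Id2-low cells and had to be higher there, so the counts describe the cells and support nothing further. With cells of similar gene number they were 13 of 20 and 17 of 18, with medians of 2.64 and 4.10. Without 6-1 they were 11 of 22 and 13 of 15, with medians of 1.78 and 3.17, against 17% of all genes. Without 29-1 the mitotic count was 12 of 14, against 16.9% of all genes.

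By cell, detected S phase genes numbered 14, 19, 7 and 14 of 23 listed, against 1 to 23 in the Id2-high cells with a median of 4. G2 and mitosis genes numbered 6, 21, 4 and 21 of 24, against 0 to 13 with a median of 0. Cells 6-1 and 29-1 thus had more mitotic genes than any Id2-high cell. The Id2-high cells 8-1, 23-1 and 9-1 had 23, 20 and 17 S phase genes, so the S phase counts overlapped. The other 20 Id2-high cells had at most 9 S phase and at most 3 mitotic genes.

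**Figure D3:**
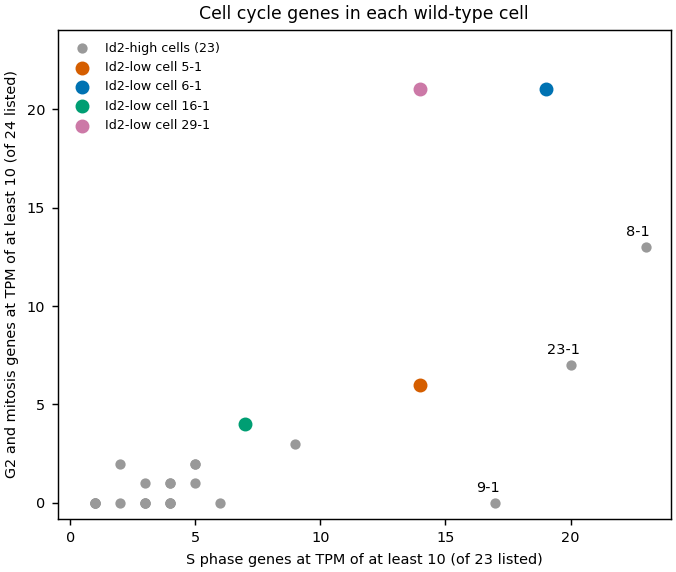
Number of S phase genes (horizontal axis, of 23) and G2 and mitosis genes (vertical axis, of 24) detected in each wild-type cell, with the 4 Id2-low cells in colour and the 23 Id2-high cells in grey. Cells 6-1 and 29-1 lie at 21 mitotic genes above every grey point, 5-1 and 16-1 lie lower at 6 and 4, and the Id2-high cells 8-1 and 23-1 lie at 13 and 7.

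Pcna, the sliding clamp of DNA replication, was at 4450, 2762, 458 and 116 TPM, with an Id2-high median of 12.5 and maximum of 2220. The helicase subunit Mcm6 was at 1894, 1626, 68.5 and 197 TPM against a median of 0.62, and Mcm7 at 351, 1208, 549 and 223 TPM against 0.67. Cells 5-1 and 6-1 exceeded every Id2-high cell in Pcna and Mcm6, and all 4 cells held the 3 genes. Rrm2, a subunit of the enzyme that makes deoxynucleotides, was at 20.4, 1606, 0.58 and 0 TPM. Pcna and Mcm6 were thus highest in 5-1 and 6-1, while Mcm7 was higher in 16-1 than in 5-1.

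Ccnb2, a mitotic cyclin, was at 0, 554, 510 and 2483 TPM, and no Id2-high cell passed 2.11 TPM. Ccnb1 was at 0, 499, 0 and 1553 TPM, and Cdc20, an activator of the complex that ends mitosis, at 0, 318, 0 and 934 TPM. Ccnb1 and Cdc20 were together in 6-1 and 29-1 and in none of the Id2-high cells. Birc5, which encodes survivin, was at 511, 1529, 0 and 789 TPM, and Nusap1, a spindle protein, at 242, 792, 0 and 228 TPM. Their highest Id2-high values were 391 and 16.5 TPM. Mki67 was at 0, 82.3, 84.8 and 25.4 TPM, against at most 29.0 TPM. Cell 16-1 therefore held Ccnb2 and Mki67 and lacked most of the others.

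Genes of the G1 phase went both ways. Cdkn1a, the kinase inhibitor p21, was in all 4 cells at 244, 558, 702 and 269 TPM and was detected in 5 of 23 Id2-high cells, whose median was 0.29. Of the D-type cyclins, Ccnd3 was at 577, 1743, 63.2 and 1473 TPM against a median of 178. Ccnd2 was at 0, 0, 0.71 and 0.48 TPM against a median of 44.3, and was detected in 13 of 23 Id2-high cells. Ccnd1 was at 0 in all 27 cells. Myc was at 1.88 TPM in 16-1 and at 0 in the other 3, and was detected in 9 of 23 Id2-high cells, at up to 1479 TPM. Its relative Mycn was at 2.75, 24.9, 0 and 205 TPM. The cells with the most mitotic genes, 6-1 and 29-1, thus held Ccnd3 and Mycn, with Myc at 0 and Ccnd2 below 1 TPM.

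Markers of other cell types differed from cell to cell, and their part in the results above was not tested. Of 17 genes of plasmacytoid dendritic cells, 7, 2, 4 and 4 were detected, against 0 to 4 in Id2-high cells. Their summed level was 11585, 188, 1598 and 808 TPM, against 0 to 2006 with a median of 220. Cell 5-1 held Siglech, a lectin that defines these cells, at 1704 TPM, Irf8 at 2044 TPM, Cox6a2 at 7070 TPM and Ly6c2 at 413 TPM. Siglech and Cox6a2 were at 0 in 6-1, 16-1 and 29-1, and Spib, Klk1 and Cd300c were at 0 everywhere. Bst2, a membrane protein of the same list that interferon also induces, was in all 4 cells at 165, 162, 1022 and 294 TPM. Over the list 5 of 8 kept genes were at least 2 higher, against 20% of all genes. Without 5-1 it was 2 of 8, near the 27.5% of all genes in that setting.

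Cpa3, a protease of mast cells and early progenitors, was at 0, 1018, 1168 and 3212 TPM and was detected in 5 of 23 Id2-high cells. The defining mast cell and basophil genes Tpsb2, Mcpt8, Fcer1a and Ms4a2 were at 0 in all 4 cells. Itga2b, an integrin of megakaryocytes and multipotent progenitors, was at 369 TPM in 16-1 and 218 TPM in 29-1. The myeloid granule genes Mpo, Elane, Prtn3 and Ctsg were at 0 in all 27 cells. Ly86, a partner of a Toll-like receptor relative, was at 1013, 0, 0 and 142 TPM and was detected in 2 of 23 Id2-high cells. Of 10 mast cell and basophil genes 0, 1, 1 and 1 were detected, of 10 erythroid and megakaryocyte genes 0, 0, 1 and 3, and of 16 myeloid genes 1, 0, 0 and 3, against 0 to 3 in Id2-high cells for each list.

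Genes of multipotent progenitors were unevenly spread among the 4 cells. Of 15 listed genes 4, 2, 1 and 4 were detected, against 0 to 2 in Id2-high cells. Cd34 was at 537, 0.28, 92.8 and 0 TPM, and no Id2-high cell passed 0.17 TPM. Gfi1b was at 692, 0, 0 and 40.7 TPM, with a highest Id2-high value of 2.2 TPM, and Cd48 at 1729, 289, 0 and 145 TPM. Of 6 kept genes 3 were at least 2 higher, against 20% of all genes, with a median of 1.91, but 2 of the 6 passed the filter only with the help of the Id2-low cells. Without 5-1 the count was 1 of 5 and the median -0.82. Mecom, Erg and Cd33 were at 0 in all 27 cells. Of 8 kept genes of class II antigen presentation and dendritic cells 5 were at least 2 lower, against 3.71% of all genes, and 1 at least 2 higher. The latter was H2-DMa, which helps load class II molecules, at 796, 73.5, 0 and 133 TPM against a median of 1.51. Cd74, the invariant chain, was at 16.1, 4.19, 1.96 and 22.2 TPM against a median of 34.9 and a maximum of 38354.

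Genes of the sort gate were checked against the labels. Itga4, the α4 integrin chain, was at 103, 20.3, 372 and 127 TPM, and Itgb7, the β7 chain, at 1.28, 109, 10.2 and 119 TPM. Cell 5-1 thus had little RNA of β7. Ptprc, which encodes CD45, was at 0, 20.7, 1.47 and 129 TPM against a median of 104. Il2ra, the CD25 gene, was at most 0.21 TPM and Ly6a, a Sca1 gene, at most 2.93 TPM in the 4 cells. RNA of a surface protein and the protein itself can differ, and the labels give no protein level for a cell.

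Homing and cytokine receptor genes also separated the cells. Cxcr4, a receptor that holds progenitors in the marrow, was at 206, 206, 29.6 and 54.4 TPM and was detected in 8 of 23. Ccr7 was at 986 TPM in 5-1 and below 1 TPM in the other 3. Il2rg, the common cytokine receptor chain, was at 8.65, 455, 8.5 and 1028 TPM, against 9.97 to 12077 TPM with a median of 1697. Cells 5-1 and 16-1 lay below every Id2-high cell. Socs1, a feedback inhibitor of cytokine signalling, was at 0, 39.5, 0.84 and 1.40 TPM and was detected in 18 of 23 Id2-high cells, whose median was 255.

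Across all genes, 9 had every Id2-low value above every Id2-high value, which is 0.109% of the kept genes: Dntt, Gpr56, H2afv, Hist1h2an, Hist1h2bm, Hmgb1, Hmgn2, Plac8 and Txn1. They were picked out after the values had been seen. Plac8, a small protein of progenitors, was at 11364, 3133, 8218 and 4870 TPM against a median of 14 and a maximum of 2777. Gpr56, an adhesion receptor, was at 316, 113, 131 and 147 TPM, and no Id2-high cell passed 0.54 TPM. Gpr56 thus passed the gene filter only with the help of the Id2-low cells and had to be higher there. Hmgn2, a nucleosome-binding protein, was at 2929, 5420, 4246 and 5474 TPM against a maximum of 2122. In the opposite direction the count was 1, Id2 itself, which is 0.0121% and was fixed by the selecting rule.

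By detection, 178 genes (2.15%), the selecting gene Dntt included, were in all 4 cells and in under 50% of the Id2-high cells. In the opposite direction, 25 genes (0.302%) were detected in none of the 4 and in 50% or more of the Id2-high cells. The former number was 557 without 5-1 and 529 without 16-1, the cells with the fewest genes. The latter was 58 without 29-1 and 47 without 6-1. Genes low in all 4 cells included S100a4, a calcium-binding protein, at 7.68, 7.62, 14.4 and 6.09 TPM against a median of 1106. Itgb2, the integrin chain shared by leukocyte integrins, was listed at 0 in all 4 and detected in 14 of 23 Id2-high cells. Ckb, a creatine kinase, was at 0.37 TPM in 29-1 and 0 in the others, against a median of 144.

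**Figure D4:**
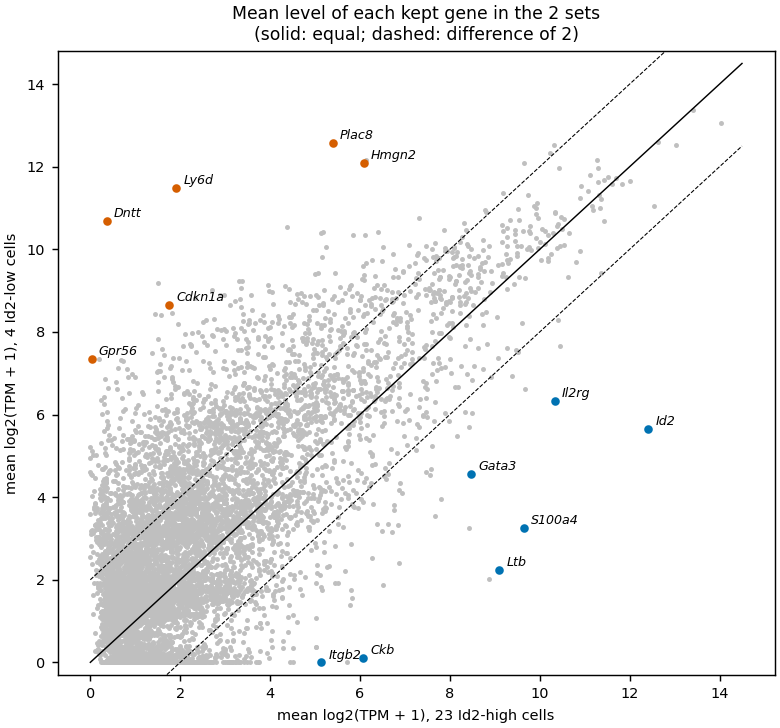
Mean log2(TPM + 1) of each of the 8278 kept genes in the 23 Id2-high cells (horizontal axis) and the 4 Id2-low cells (vertical axis), with a solid line at equality and dashed lines at a difference of 2. More genes lie above the upper dashed line (1652) than below the lower one (307), with Dntt, Gpr56 and Plac8 among the farthest above and Id2, Ltb and S100a4 among the farthest below.

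The 4 cells were not all closest to each other. Spearman correlations of TPM were taken across 8276 kept genes without Id2 and Dntt. The values depend on the number of genes in a cell, and genes are not independent replicates. Cells 6-1 and 29-1 were each other's best match, with a correlation of 0.506, and the Id2-high cell 8-1 followed with 0.496 and 0.501. The best match of 5-1 was 6-1 with 0.377, ahead of 8-1 with 0.350, and that of 16-1 was 29-1 with 0.379, ahead of the Id2-high cell 11-1 with 0.362. The median correlation with Id2-high cells was 0.288, 0.322, 0.332 and 0.341. Each Id2-low cell thus matched another Id2-low cell best, with an Id2-high cell close behind.

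Placed side by side, the cells differed in which groups they held. Cell 5-1 had high Ly6d, Flt3, Blnk, Cd34 and Siglech, replication genes, and no Tcf7, Gata3 or Lck detected. Cell 6-1 had Rag1 and Rag2, Tcf7, Lck, Gata3, Cpa3 and most replication and mitotic genes, with Ly6d at 6.02 TPM. Cell 16-1 had high Ly6d, Tcf7, Lck, Kit and Cpa3, little Il7r and Gata3, and few mitotic genes. Cell 29-1 had high Ly6d, with Rag2, Tcf7, Lck, Gata3, Tox, Kit, Cpa3 and mitotic genes detected. It was the member with the most Id2.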

How the data were processed

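Kits were used to amplify polyA RNA of sorted cells and to build libraries, per the labels' protocols. Values are the authors' deposited TPM, by gene symbol, in 63 libraries and 23420 rows. The submitters' processing notes name mm10, bcl2fastq 2.16.0.10, StringTie 1.3.4, SAMtools 0.1.19 and HISAT2 2.1.0 without roles. Since TPM has a fixed sum of 1000000, depth is unknown and no count test was used. Strand is not given in the sources used here. Near-identical histone copies are uncertain.

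Means of log2(TPM + 1) were compared in Python 3.11.15 with NumPy 2.4.6 and pandas 2.3.3, and figures were drawn in matplotlib 3.10.9. Genes that reached 1 TPM in 3 or more of 27 cells were kept, which leaves out genes held by 1 or 2 cells. A gene was detected in a cell from 10 TPM upwards. In 27 rows the symbol had become a date, and these were left out. Of 329 list members in 23 lists, 9 had no row. Coordinates are from GENCODE M21 on GRCm38 and promoters from RefSeq. The functions were tested on simulated data.

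The members, lists and rules were chosen with earlier results of these data known. Named genes were the lymphoid priming, ILC progenitor, and E and ID protein lists, up to 6 members of each other list, the 15 highest and 15 lowest differences and genes whose sets did not overlap. The last rule and the histone set were added after values were seen. Other list members, among them Rrm2, Ccnb1, Cdc20, Mki67, Cd34, Siglech, Blnk and Ccr7, were named as examples outside these rules. Values of some list genes are not reported here, while list counts include them. Alternatives changed the pseudocount, gene filter, detection level, scaling, Id2 limit and cells compared.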

Additional observations from a re-analysis of the deposited data

Results flagged for a closer look

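Within the 4 Id2-low cells, the mean log2(TPM + 1) of each of the 23 lists was screened at its lowest and its highest cell. In 3 lists a cell's gap to the nearest of the others was above Dixon's 95% limit, which chance alone passes for about 1 in 20 groups. The lists share genes and the same 4 cells, so the 3 cannot be set against that rate. The limit serves here only to flag values. For lymphoid priming genes, cell 16-1 had the lowest mean at 3.22, and the others had 5.07, 5.24 and 5.37. For sort gate genes, cell 29-1 had the highest mean at 4.45, and the others had 2.96, 3.15 and 3.16. For 10 widely used genes, cell 5-1 had the lowest mean at 7.16, and the others had 9.52, 9.60 and 9.99. In 5-1 these genes and the number of genes detected are both among the lowest of the 4, and the part this plays in its other values was not tested.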

How the results depend on the processing

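No paired analysis was possible because no test was made and the labels tie no cells together. No list median of 2 or more in size changed sign under the alternatives run. The same held for gene differences in the runs where the gene passed the filter. These were run for the genes named by list rule or by size of difference. Runs in which a gene failed the filter were not scored. Flt3, with a difference of 2.26, was above 0 in 1 Id2-low cell and was scored in 24 of 27 runs with 1 cell left out. Without that cell it failed the filter. Its remaining Id2-low values were 0, below the Id2-high mean log2(TPM + 1) of 0.34, so its sign was not robust. List medians nearer 0 did change sign: T lineage (to -0.41 without 29-1), G1 (to -0.19 without 6-1), interleukin 7 signalling (to 0.052), multipotent progenitor and ribosomal protein genes. The number of higher genes, 1652, was 2562 with a pseudocount of 0.1, 480 with 10 and 975 when genes had to reach 1 TPM in 30% of cells. The number of lower genes, 307, was 726 and 63 with those pseudocounts, 496 after quantile normalisation, 621 with Id2 below 100, 779 with cells of similar gene number, and 282 to 621 with 1 cell left out at a time. The 178 genes detected in all 4 cells and few others were 111 with detection at 50 TPM or more, 107 with similar gene number and 149 to 557 with 1 cell left out. The 25 genes detected in none of the 4 were 16, 47, 58 and 73 with detection at 50, quantile normalisation, Id2 below 100 and similar gene number, and 27 to 58 with 1 cell left out. List medians that moved past the spread were those of ILC1 (-1.93 and -0.71 with pseudocounts of 0.1 and 10, -2.15 with similar gene number), ILC3 (-1.60 and -0.67, -2.14, and -2.82 with the 30% filter), class II and dendritic genes (-1.52 with a pseudocount of 10, -1.23 with no filter), migration receptors (-1.31) and ribosomal protein genes (-0.083) with similar gene number, and multipotent progenitor genes (-0.82 to 2.79 with 1 cell left out). The cause of these shifts was not tested. The read depth is unknown, so the precision of low values cannot be given.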

Other observations

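Replication-dependent histone genes, whose RNA builds up in S phase, were not in the lists above and were picked after the values were seen. Of 68 rows with Hist1 to Hist4 symbols 58 were kept, and 39 had a mean at least 2 higher in the Id2-low cells and 0 at least 2 lower, against 20% and 3.71% of all kept genes. The median difference was 2.75. Their summed level was 19034, 18754, 11470 and 899 TPM in 5-1, 6-1, 16-1 and 29-1, and 29.4 to 3137 TPM in the Id2-high cells with a median of 1185. Cells 5-1, 6-1 and 16-1 lay above every Id2-high cell, and 29-1, which had 21 of 24 mitotic genes, lay below the Id2-high median. Copies of histone genes are near-identical, so single members are uncertain and the sum is the safer value. The libraries were made from polyA RNA, and how far these histone RNAs were captured was not tested. The sum is therefore no measure of S phase. How many of the 58 rows passed the filter only with the help of the Id2-low cells was not counted.

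The next counts cover kept genes only, which had to reach 1 TPM in 3 or more cells, so most genes held by 1 cell, such as Blnk, are not in them. Genes detected (10 TPM or more) in 1 Id2-low cell and not in the other 3 numbered 206 in 5-1, 834 in 6-1, 252 in 16-1 and 1075 in 29-1. Of these, 7, 11, 3 and 8 were below 10 TPM in every Id2-high cell as well.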
